A study of Mus musculus with 8 samples.

Results

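Adipokines are proteins that fat cells release into the blood. The genes of 6 of them, Adipoq, Cfd, Rarres2, Rbp4, Lep and Retn, were chosen by name and followed as mRNA. Of the 6, 5 were found by Ensembl ID among the 20781 genes of the count table. Lep, the gene of the satiety hormone leptin, was absent from the table and was not analysed here. The smallest row total in the table is 11 counts over the 8 libraries.

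In fat, adiponectin (Adipoq) is released mainly by adipocytes and raises insulin sensitivity through the receptors AdipoR1 and AdipoR2, while T-cadherin holds its multimers at the cell surface. Adipsin (Cfd) is complement factor D, the serine protease that cleaves factor B when it is bound to C3b and so starts the alternative pathway. Chemerin (Rarres2) is released as a precursor, is trimmed by proteases and attracts immune cells that carry its receptor CMKLR1, and retinol-binding protein 4 (Rbp4) carries vitamin A in the blood. Resistin (Retn) is a small cysteine-rich hormone that mouse white adipocytes make. Adipoq, Cfd and Retn are classical genes of late adipocyte differentiation, with C/EBPα among their activators.

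The cells were fibro-adipogenic progenitors (FAPs), resident mesenchymal cells of muscle that can turn into adipocytes or fibroblasts. They came from the uninjured tibialis anterior, gastrocnemius and quadriceps of wild-type male mice, of the strain C57BL/6 in the sample labels and C57BL/6J in the series text, with no age given in the sources used here. After 48 h in culture they received vehicle or melatonin for 24 h, with 4 libraries labelled as biological replicates in each group and no melatonin dose given in the sources used here. The extraction protocol in the labels names another muscle, longissimus dorsi, and the files do not settle which holds.

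Library totals ran from 35584931 to 52401153 counts, and melatonin replicates 2 and 4 were the 2 smallest, at 40330511 and 35584931. Melatonin replicate 4 also stood apart from its group. Its chi-square per gene against the other melatonin libraries was 61.5 to 79.3, beside 24.9 to 34.4 among those 3, and ribosomal protein genes took 5.06% of its counts, beside 3.68 to 3.88%. All 10 FAP markers had counts in both groups, but so did all 12 macrophage and all 8 endothelial markers listed. The presence of counts therefore does not settle the labelled cell type. Pdgfra, the receptor gene that defines FAPs, stood at 570 ± 52.2 CPM with vehicle (read counts scaled to library size with TMM factors, mean ± SD, n = 4) and 465 ± 74.0 with melatonin. Pdgfra and the macrophage gene Lyz2 were named after their values were seen. The myogenic stem cell genes Pax7 and Myf5 were absent from the table, and Lyz2 was at 254 to 553 CPM over the 8 libraries. Mitochondrial genes took 1.05 to 1.301% of the counts with vehicle and 2.09 to 2.44% with melatonin. The part of this difference in the results that follow was not tested.

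The promoter windows of the members that rose and of the member that did not pass are printed here because the text returns to them. They run from 250 bases before to 50 bases after the RefSeq transcription start on GRCm38.p6, on the strand of the gene. Capitals mark every match to the motifs searched.
Adipoq, chr16:23146286-23146585, plus strand: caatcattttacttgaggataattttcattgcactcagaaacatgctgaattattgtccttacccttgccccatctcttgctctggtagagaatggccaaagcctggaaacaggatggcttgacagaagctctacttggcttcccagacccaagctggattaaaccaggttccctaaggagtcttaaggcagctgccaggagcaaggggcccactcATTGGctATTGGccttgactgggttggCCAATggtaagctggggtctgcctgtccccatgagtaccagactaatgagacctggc
Cfd, chr10:79890603-79890902, plus strand: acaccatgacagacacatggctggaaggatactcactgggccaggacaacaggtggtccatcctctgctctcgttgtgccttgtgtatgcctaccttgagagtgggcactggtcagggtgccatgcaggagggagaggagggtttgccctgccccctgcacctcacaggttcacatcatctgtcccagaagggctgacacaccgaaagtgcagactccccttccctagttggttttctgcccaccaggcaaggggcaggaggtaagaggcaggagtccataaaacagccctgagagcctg
Rbp4, chr19:38124762-38125061, minus strand: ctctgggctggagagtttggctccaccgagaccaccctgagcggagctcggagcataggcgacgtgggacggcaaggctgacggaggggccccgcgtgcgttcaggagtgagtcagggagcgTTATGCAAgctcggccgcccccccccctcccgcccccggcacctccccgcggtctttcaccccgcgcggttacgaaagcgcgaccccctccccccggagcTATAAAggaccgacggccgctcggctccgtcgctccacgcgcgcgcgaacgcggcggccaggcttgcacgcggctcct
Retn, chr8:3655520-3655819, plus strand: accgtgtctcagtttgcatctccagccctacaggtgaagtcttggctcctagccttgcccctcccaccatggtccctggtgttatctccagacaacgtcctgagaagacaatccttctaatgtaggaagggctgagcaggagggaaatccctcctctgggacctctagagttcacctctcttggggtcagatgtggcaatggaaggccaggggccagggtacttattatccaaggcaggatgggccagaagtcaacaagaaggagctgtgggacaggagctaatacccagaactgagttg

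A window was given for 5 of the 6 members, and Rarres2 had none. Searched on both strands were AGGTCA, the nuclear receptor half-site (in 16.3% of the 32851 windows of this length), TTGCNNCAA, a C/EBP-type site (2.08%), the E-box CACGTG (7.15%) and the TATA box TATAAA (13.6%). TTGCNNAA (10.8%), which spells the C/EBP palindrome without an extra base, and CCAAT (37.4%) were added after the windows had been read. Adipoq held 3 matches to CCAAT, which began 34, 27 and 7 bases before the start. Rbp4 held the TATA box 28 bases before the printed start and a match to TTGCNNAA at 128 bases. Its other annotated window held 1 CCAAT match, and the Lep window, not printed, held TTGCNNAA at 55 bases. Cfd and Retn held no match to any of the 6 motifs. The windows also differed in composition: Adipoq had 0 CpG dinucleotides, Cfd 2, Retn 2 and the printed Rbp4 window 40, beside a median of 7 over all windows. A match describes letters in the window and does not show binding.

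With melatonin, 3 of the 5 measured adipokine genes rose, 1 fell and 1 did not pass the test. Adiponectin mRNA rose 4.28-fold, adipsin mRNA 2.46-fold and retinol-binding protein 4 mRNA 1.56-fold, whereas chemerin mRNA was 3.72-fold lower. The test was edgeR's quasi-likelihood F-test over all 16565 genes that had enough counts, with Benjamini-Hochberg adjusted p under 0.05 as the threshold. Over all tested genes 36.5% passed, 18.1% as higher and 18.5% as lower, so a pass by itself was common in this comparison. The vehicle and melatonin libraries did not overlap for 4 of the 5 members, where 37.7% of all tested genes were without overlap. Without melatonin replicate 4 the log2 fold changes were 2.13 for Adipoq, 1.40 for Cfd, 0.71 for Rbp4, -1.88 for Rarres2 and 0.16 for Retn, and the calls of the 5 were as with it. The 5 members had a median log2 fold change of 0.64, beside 0.01 for all tested genes. RNA was taken from whole cultures, so more cells that express a gene and more RNA per cell cannot be told apart. All 9 tested markers of mature adipocytes rose beside the members, with a median log2 fold change of 2.53. Of the 10 listed, Pck1 was absent from the table. The summed level of the 9 tested markers was 708 to 796 CPM with vehicle and 1792 to 2525 with melatonin. Most of it was Lpl (620.5 ± 41.7 and 1440 ± 237 CPM), a gene named after its values were seen. The part of the summed level in the adipokine values was not tested.

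**Figure D1:**
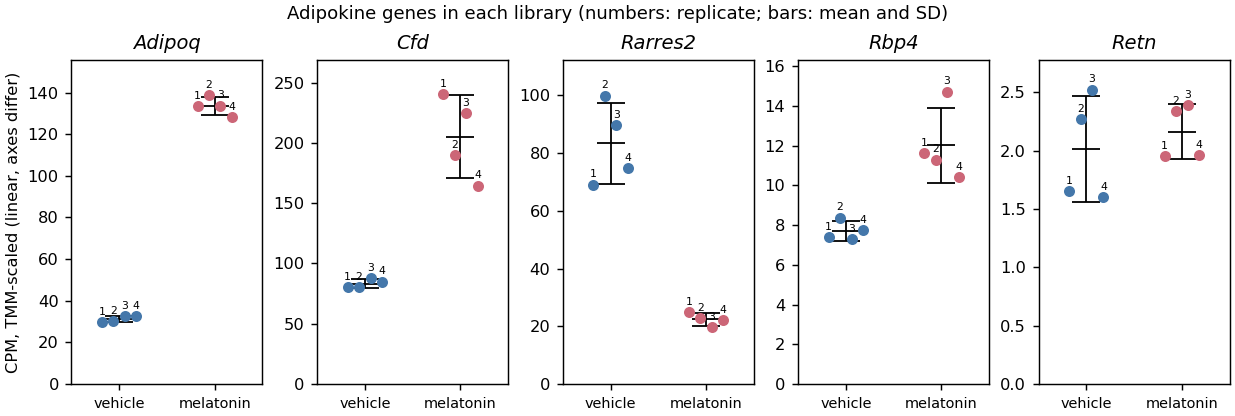
CPM of the 5 measured adipokine genes in each library (vertical axis, linear from 0, a scale of its own for each gene), with vehicle and melatonin on the horizontal axis; points are libraries numbered by replicate, and bars are the mean and SD of 4 libraries. Adipoq, Cfd and Rbp4 lie higher with melatonin and Rarres2 lower, without overlap between groups, and Retn overlaps.

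Adipoq encodes adiponectin (ENSMUSG00000022878, chromosome 16, 23146536 to 23158028, plus strand, GENCODE M21 on GRCm38). Vehicle replicates 1 to 4 had 29.6, 30.1, 32.5 and 32.6 CPM. Melatonin replicates 1 to 4 had 134, 139, 134 and 128 CPM. The lowest melatonin library thus lay far above the highest vehicle library, and within a group the libraries hardly differed, with an SD of 5.15% of the mean for vehicle and 3.25% for melatonin. The log2 fold change was 2.10 ± 0.063 (standard error, 95% interval 1.96 to 2.24, edgeR adjusted p = 1.3e-07). Of all tested genes 99.5% had a smaller log2 fold change, and none had a smaller p. The counts behind these values were 1298 to 1625 per vehicle library and 4771 to 7163 per melatonin library.

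Cfd encodes adipsin (ENSMUSG00000061780, chromosome 10, 79890853 to 79892655, plus strand). It was at 80.7, 80.3, 87.6 and 85.0 CPM in vehicle replicates 1 to 4. In melatonin replicates 1 to 4 it was at 241, 190.0, 225 and 165 CPM. All melatonin libraries were higher than all vehicle libraries, but they were spread out, with an SD of 16.7% of the mean against 4.24% with vehicle. The 2 lower melatonin values came from replicates 2 and 4, the libraries with the smallest totals, and replicate 4, the lowest, is the library that stood apart; the part of either in this spread was not tested. The log2 fold change was 1.299 ± 0.11 (95% interval 1.05 to 1.55, edgeR adjusted p = 2.0e-05), and it was 1.40 without melatonin replicate 4.

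Rbp4, the carrier of retinol (ENSMUSG00000024990, chromosome 19, 38116629 to 38125281, minus strand), rose least. Its vehicle values were 7.38, 8.38, 7.30 and 7.74 CPM. Its melatonin values were 11.6, 11.3, 14.7 and 10.4 CPM. The groups did not overlap, and replicate 3 was the highest melatonin library. The log2 fold change was 0.64 ± 0.12 (95% interval 0.37 to 0.91, edgeR adjusted p = 0.0023). Of all tested genes, 91.6% had a smaller log2 fold change.

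Rarres2, the gene of the chemoattractant chemerin (ENSMUSG00000009281, chromosome 6, 48569696 to 48572789, minus strand), was the member that fell. Vehicle replicates 1 to 4 were at 69.1, 99.9, 89.8 and 74.9 CPM. Melatonin replicates 1 to 4 were at 25.0, 22.9, 19.6 and 22.2 CPM. The highest melatonin library was well under the lowest vehicle library, and here the vehicle libraries were the more spread out (SD 16.8% of the mean, against 10.01% with melatonin). The log2 fold change was -1.90 ± 0.13 (95% interval -2.18 to -1.61, edgeR adjusted p = 4.7e-06), and 2.67% of all tested genes had a lower one. Rarres2 overlaps Lrrc61, a gene on the opposite strand, over 892 bases of exons, and the use of strand in the counting is not given in the sources used here, so reads of that stretch cannot be assigned for certain. Lrrc61 itself, named for this overlap, was at 8.003 ± 1.72 CPM with vehicle and 6.18 ± 4.33 with melatonin, ranging from 1.05 CPM in melatonin replicate 4 to 10.7 in melatonin replicate 1, and did not pass (edgeR adjusted p = 0.66).

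Retn, the gene of resistin (ENSMUSG00000012705, chromosome 8, 3655770 to 3660110, plus strand), was scarce in both groups. Vehicle libraries had 1.65, 2.27, 2.52 and 1.60 CPM, from 80 to 115 counts. Melatonin libraries had 1.96, 2.34, 2.39 and 1.96 CPM, from 73 to 128 counts. The melatonin libraries lay within the range of the vehicle libraries. The log2 fold change was 0.11 ± 0.19 (edgeR adjusted p = 0.70), with a 95% interval of -0.32 to 0.53. In linear terms the interval runs from 0.803 to 1.44 times the vehicle level. The estimated rises of Adipoq, Cfd and Rbp4 lie outside it, whereas small changes in either direction lie inside. The Rbp4 interval, 0.37 to 0.91 on the log2 scale, overlaps that of Retn, which does not decide whether the fold changes of these genes differ. That difference was not tested.

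**Figure D2:**
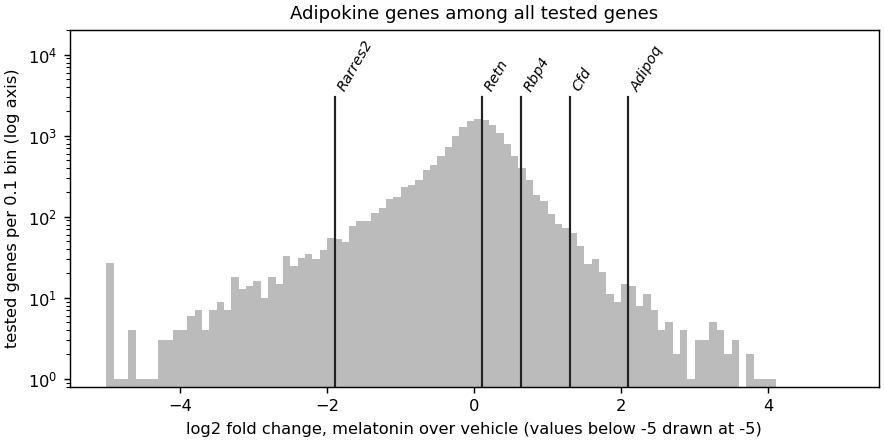
Number of tested genes (vertical axis, log scale) in bins of log2 fold change of melatonin over vehicle (horizontal axis), with a line at each measured adipokine gene; the leftmost bar also gathers all lower values. Adipoq (2.10) and Cfd (1.299) lie in the upper tail, Rbp4 (0.64) on the upper shoulder, Retn (0.11) near the centre and Rarres2 (-1.90) in the lower tail.

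Levels were set side by side per kilobase of merged exons, since the genes differ in length. With vehicle, adipsin mRNA was the highest by this measure, at 90.4 ± 3.83 CPM per kb. Rarres2 followed at 31.4 ± 5.28, Adipoq at 22.6 ± 1.16, Rbp4 at 5.73 ± 0.366 and Retn at 1.27 ± 0.288 CPM per kb (mean ± SD, n = 4 each). No neighbours in that vehicle order overlapped between libraries. The place of Rarres2 rests on its annotated length of 2656 bases, beside 922 for Cfd. Without division by length Rarres2 and Cfd were level with vehicle, at 83.5 ± 14.0 and 83.4 ± 3.54 CPM. Which transcripts the cells made was not tested. With melatonin Cfd was still first at 222.5 ± 37.2 and Adipoq second at 96.6 ± 3.14 CPM per kb. Rbp4 (8.95 ± 1.40, range 7.75 to 10.97) and Rarres2 (8.44 ± 0.846, range 7.37 to 9.43) could not be ordered, because their libraries overlapped. Retn was last again at 1.37 ± 0.15 CPM per kb. Among 16532 tested genes with a length, adipsin mRNA ranked 583rd from the top with vehicle and 212th with melatonin. Adipoq went from rank 2321 to rank 502, and Rarres2 from rank 1709 to rank 4874.

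The ratio of a pair of members within a library does not depend on how libraries are scaled, and these ratios are given as descriptions. The log2 ratio of Adipoq to Rarres2 counts was -1.23, -1.73, -1.47 and -1.20 in vehicle replicates 1 to 4 and 2.42, 2.60, 2.77 and 2.52 in melatonin replicates 1 to 4. The balance of these counts moved by 3.98 on the log2 scale, from fewer adiponectin than chemerin reads in every vehicle library to more in every melatonin library. The log2 ratio of Adipoq to Cfd was nearly constant with vehicle, at -1.45 to -1.38, and was -0.85, -0.46, -0.75 and -0.36 with melatonin. Adiponectin mRNA thus gained on adipsin mRNA in all 4 melatonin libraries, most in replicates 2 and 4. The log2 ratio of Rbp4 to Retn was 1.53 to 2.27 with vehicle and 2.27 to 2.62 with melatonin, so the groups adjoined but did not overlap.

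The members were then set against 4 genes of the lipid droplet and of lipid handling that mark adipocytes. These were Plin1, which coats droplets, Fabp4, a fatty acid carrier, Lipe, the hormone-sensitive lipase, and Cidec, which enlarges droplets. Plin1 went from 13.6 ± 2.21 to 184 ± 27.1 CPM, Fabp4 from 58.6 ± 2.62 to 420 ± 45.1, Lipe from 19.6 ± 2.22 to 85.2 ± 18.04 and Cidec from 1.06 ± 0.19 to 3.42 ± 0.534, and all 4 passed as higher. Melatonin replicate 4 was the lowest melatonin library for all 4 of them, for Cfd, for Adipoq and for Rbp4. For Adipoq it was lower by little, at 128 CPM beside 134 to 139 in the other 3, while Plin1 was at 144 beside 195 to 202 CPM.

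Relative to Lipe, Adipoq kept a mean log2 ratio of 0.68 ± 0.23 with vehicle and 0.67 ± 0.30 with melatonin, with overlapping libraries. Relative to Plin1 its log2 ratio fell in every melatonin library, from 1.22 ± 0.16 to -0.45 ± 0.19. Relative to Fabp4 the Adipoq log2 ratio went from -0.91 ± 0.13 to -1.65 ± 0.12. Relative to Cidec it went the other way, from 4.90 ± 0.23 to 5.30 ± 0.21, with overlapping libraries and only 39 to 56 Cidec counts per vehicle library. The size of the change in adiponectin per unit of adipocyte marker therefore depended on the marker. Only the falls relative to Plin1 and Fabp4 were without overlap, so a reversed direction is not shown. Cfd was lower relative to all 4 markers in the mean, with differences of -2.48 (Plin1), -1.55 (Fabp4), -0.82 (Lipe) and -0.415 (Cidec) on the log2 scale. The corresponding differences were -3.13 to -1.07 for Rbp4, -3.64 to -1.57 for Retn and -5.65 to -3.58 for Rarres2, and the groups did not overlap for any marker in these genes or in Cfd.

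**Figure D3:**
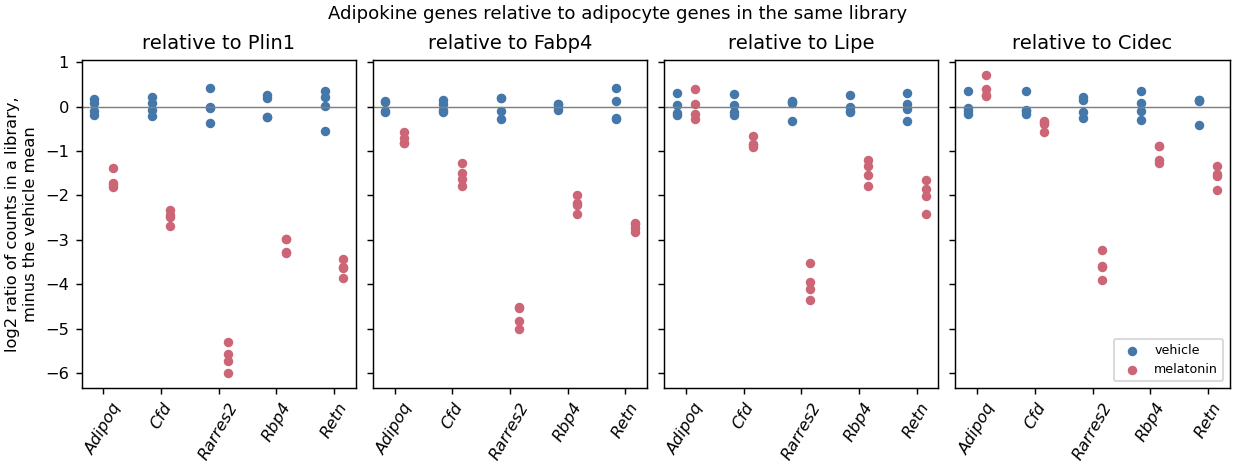
Log2 ratio of each adipokine gene to an adipocyte gene in the same library, minus the mean over the vehicle libraries (vertical axis), for 4 adipocyte genes (panels); points are the 4 vehicle and 4 melatonin libraries. For Adipoq the groups overlap relative to Lipe and Cidec and melatonin is lower relative to Plin1 and Fabp4; Rarres2 is lowest with melatonin in every panel.

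Receptor genes for these adipokines moved in both directions. Of 9 tested among the 11 listed, 2 were called higher and 3 lower, and the median difference was 0.06 on the log2 scale. Over all tested genes 18.1% were called higher and 18.5% lower. Adipor2, which encodes the adiponectin receptor linked to PPARα signalling, was at 79.8 to 87.6 CPM with vehicle and at 186, 169, 197 and 138.5 CPM in melatonin replicates 1 to 4. Every melatonin library was above every vehicle library, and the log2 fold change was 1.06 ± 0.10 (edgeR adjusted p = 4.0e-05). Cdh13, the T-cadherin gene, rose by 0.31 ± 0.082 (edgeR adjusted p = 0.014). Adipor1, which encodes the receptor linked to AMP kinase, was at 208 ± 9.38 and 217 ± 24.7 CPM and did not pass (log2 fold change 0.06, 95% interval -0.12 to 0.25). With library totals alone as the scaling it did (0.22, adjusted p = 0.045).

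For chemerin, the signalling receptor gene Cmklr1 was at 5.82 ± 0.981 CPM with vehicle and 4.23 ± 0.597 with melatonin, and the groups overlapped. Its fall of -0.46 ± 0.16 only just passed (edgeR adjusted p = 0.046) and was lost in 11 of 17 alternatives, among them the fits without any 1 library other than vehicle replicate 2 (adjusted p = 0.015 to 0.15 over all of them). Ccrl2, which binds and concentrates chemerin at the cell surface, fell from 13.4 ± 8.68 to 2.14 ± 1.01 CPM (log2 fold change -2.63 ± 0.51, edgeR adjusted p = 0.0048). Vehicle replicate 3 had 26.2 CPM of Ccrl2 while the other 3 vehicle libraries had 7.76 to 11.7. The other chemerin receptor gene, Gpr1, was not analysed here.

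For retinol-binding protein, the receptor gene Stra6l fell from 1.07 ± 0.27 to 0.409 ± 0.0336 CPM (log2 fold change -1.38 ± 0.26, edgeR adjusted p = 0.0023), and Stra6 was not tested, with 0 to 6 counts per library. Lepr, the leptin receptor gene, had 4 to 23 counts per library and did not pass (log2 fold change -0.92, 95% interval -2.09 to 0.26). Cap1 and Tlr4 encode proteins proposed to bind resistin, and neither passed. Cap1 was at 145 to 310 CPM with vehicle and at 132 to 281 with melatonin. Tlr4 was at 2.84 CPM in vehicle replicate 1 and at 20.95 to 25.6 in the other 3 vehicle libraries, beside 16.9 to 22.5 with melatonin, and its log2 fold change of 0.06 became -0.30 without that library (edgeR adjusted p = 0.10).

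**Figure D4:**
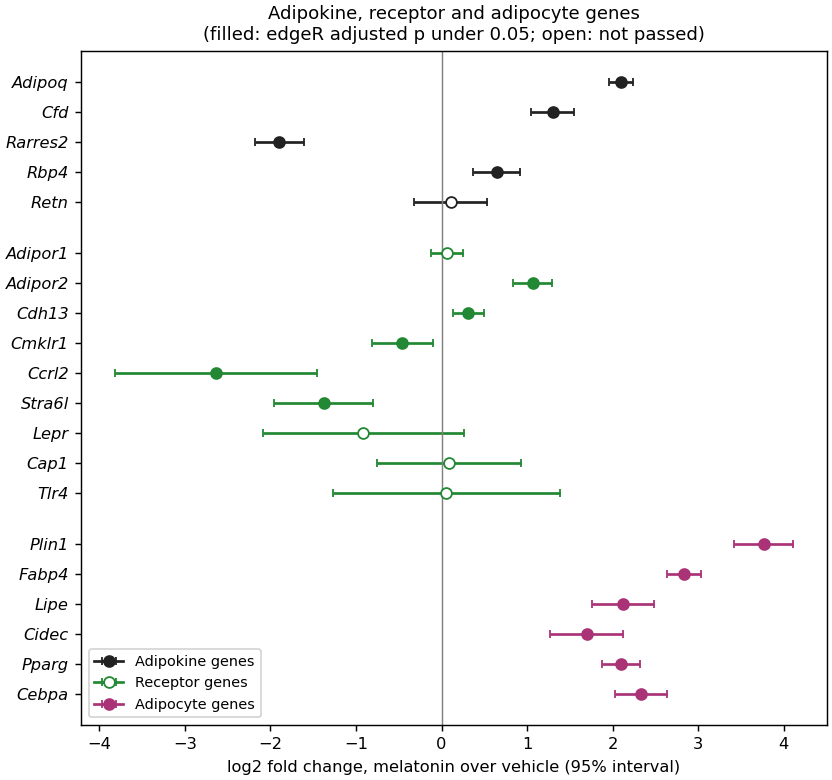
Log2 fold change of melatonin over vehicle with its 95% interval (horizontal axis) for the measured adipokine genes, their receptor genes and genes of adipocytes; filled points passed at an edgeR adjusted p under 0.05. Adipoq, Cfd, Rbp4, Adipor2 and the adipocyte genes lie to the right, Rarres2, Ccrl2 and Stra6l to the left, and Cmklr1 just left of 0.

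Genes that help make, activate or bind the adipokines mostly fell. Of 16 tested genes of the list of partners and processing, 12 fell and 2 rose (median log2 fold change -0.685, beside 0.01 for all tested genes). Over all tested genes 18.5% passed as lower and 18.1% as higher. The 2 that rose became 1 in 8 alternatives, which included leaving out any vehicle library or melatonin replicate 2 or 4. Ero1l, an endoplasmic reticulum oxidase that promotes adiponectin secretion, fell from 313 ± 13.3 to 98.9 ± 10.3 CPM (-1.66 ± 0.084, edgeR adjusted p = 9.1e-07). Cfb and C3 fell by 2.91 and 1.26 on the log2 scale, while Cfd rose. They were named after their values were seen, because adipsin cleaves factor B when it is bound to C3b. For Cfb the vehicle libraries had 1653 to 2257 CPM and the melatonin libraries 140 to 322. The substrate and the protease of this step thus moved in opposite directions at the level of mRNA.

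The listed paralogs of the members did not follow Adipoq. In the list of paralogs, which holds C1q/TNF family genes related to adiponectin, resistin-like genes and small retinoid-binding genes, 9 of 14 tested genes fell and 0 rose (0 also at an unadjusted edgeR p under 0.05, with DESeq2 and with limma-voom, and 1 with library totals alone). The median was -0.84, and 18.5% of all tested genes passed as lower. The list does not hold the C1q genes C1qa, C1qb and C1qc, which were counted among the macrophage markers. They passed as higher, by 0.98, 1.24 and 1.28 on the log2 scale, and C1qa was named after its values were seen. C1qtnf7 fell by 1.22 and C1qtnf1 by 1.215 on the log2 scale. The resistin-like genes Retnla, Retnlb and Retnlg were not analysed here.

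Among 12 genes of leptin and adiponectin signalling, 3 rose and 4 fell, with a median of 0.07. For this and the next lists, 18.1% of all tested genes passed as higher and 18.5% as lower. Jak2, the kinase of the leptin receptor, fell by 1.82, and its inhibitor genes Socs3 and Ptpn1 by 0.87 and 0.57 on the log2 scale. Of 21 tested genes for other secreted factors of fat, 11 fell and 5 rose (median -0.45). Agt, the angiotensinogen gene, rose by 2.05, close to Adipoq, whereas the genes of apelin (Apln, -1.67) and of the chemokine CCL2 (Ccl2, -1.275) fell. Of 15 adipogenic regulators 7 rose and 2 fell (median 0.20, and 1 fell without vehicle replicate 2). Pparg rose by 2.10 and Cebpa by 2.33, and Cebpd fell by 1.015 on the log2 scale.

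Markers of other cell types were counted in the same way, where 36.5% of all tested genes passed, 18.1% as higher and 18.5% as lower. Cd36, a fatty acid transporter among the adipocyte markers above, rose by 2.46 on the log2 scale. Of 10 FAP markers 5 fell, including Dcn (-1.38), Col1a1 (-1.05) and Ly6a (-0.58), and 0 rose in edgeR (1 at an unadjusted p under 0.05, 0 with DESeq2 or limma-voom, and 1 with library totals alone or without melatonin replicate 3). Their summed level was 15010 to 17660 CPM with vehicle and 7838 to 8694 with melatonin. Most of it was Col1a1, at 13770 ± 1328 and 6658 ± 386.5 CPM, so the sum mainly follows that gene. Of 12 macrophage markers 4 rose and 2 fell (2 rose without vehicle replicate 4 or melatonin replicate 1, and 1 fell without vehicle replicate 2 or 3 or melatonin replicate 2). Their summed levels overlapped, at 525.5 to 796 CPM with vehicle and 351.5 to 656.5 with melatonin. Lyz2 made up most of these sums, at 444 ± 84.6 and 398 ± 97.65 CPM. C1qc and C1qb rose by 1.28 and 1.24, and Cd14 fell by 1.13 on the log2 scale. In the list of satellite cells and myoblasts 1 of 6 tested markers fell (Vcam1) and 0 rose in edgeR (0 also at an unadjusted p under 0.05 and with DESeq2 or limma-voom, and 3 without melatonin replicate 4), with a summed level of 530.0 to 731.5 and 374 to 521 CPM and with Pax7 and Myf5 not analysed here. Most of that summed level was Vcam1, at 543 ± 87.1 CPM with vehicle and 379 ± 29.9 with melatonin. The sum therefore follows Vcam1 and not the myogenic genes Myog and Myod1. Myog had a log2 fold change of 0.65 and Myod1 of 0.82, and neither passed. Of 8 endothelial markers 1 rose (Tek, 1.045) and 1 fell (Vwf, -2.07), while Emcn did not pass (-0.93). Without vehicle replicate 4 there were 2 that rose, and without vehicle replicate 3 or melatonin replicate 1 there were 2 that fell. The summed endothelial level was 33.8 to 42.65 CPM with vehicle and 50.03 to 58.9 with melatonin. Its largest part was Tek, at 17.1 ± 1.51 and 35.3 ± 3.61 CPM. Of 8 markers of pericytes and smooth muscle 2 rose, among them Abcc9 (1.38), and 2 fell, Acta2 (-1.23) and Rgs5 (-1.51). Their summed levels were 1094 to 1250 CPM with vehicle and 495 to 738 with melatonin. Most of these was Acta2, at 1049 ± 91.4 and 447 ± 130 CPM. The part of any change in cell makeup in the adipokine values was not tested.

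The genes whose profile over the 8 libraries was most like that of each member were found by the root mean square difference in log2 CPM after each gene was centred on its vehicle mean, over 13486 genes with at least 50 counts on average. Pparg was nearest to Adipoq (0.10), followed by Agt (0.12) and the protease gene Mmp11 (0.12), where the median gene was 1.48 away. Nearest to Cfd were Myo1e (0.099), Lrp3 (0.11) and Mknk2 (0.12). Rbp4 had Zfp772 (0.075), Habp4 (0.082) and Ppat (0.083) as its nearest genes, and Rarres2 had Sept4, Wfdc17 and H2-T10 (0.13 each). For Retn they were Zcwpw1 (0.12), Zfp90 (0.13) and Epop (0.13). Since each gene was centred on its vehicle mean alone, this distance largely measures nearness in fold change. Pparg, Agt and Mmp11 had log2 fold changes of 2.10, 2.05 and 2.06, beside 2.10 for Adipoq. The nearest genes of the 3 members that rose were different in each case, and none of the 5 members was among the 3 nearest of another. The members differed in fold change, so this outcome shows nothing further about their profiles.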

How the data were processed

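Gene counts from bulk RNA sequencing of 8 libraries, 4 with vehicle and 4 with melatonin, were analysed. The authors deposited whole-number counts per Ensembl gene. The submitters' processing notes name HISAT2 2.0 and StringTie 1.3.3b, Trimmomatic 0.36 and FastQC 0.11.2, DESeq2 1.12.4 and bedtools 2.26.0, and the build mm10. The counting program, its annotation and its strand setting are not given in sources used here, so overlapping genes may share reads. Columns with the control prefix were read as vehicle, the only other group. Symbols and positions came from GENCODE M21 on GRCm38, the assembly of mm10, where 20720 of 20781 IDs were found. Library totals were 35584931 to 52401153 counts, and values of low genes are limited by counting error, with 73 to 128 counts per library for Retn.

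Genes were kept with filterByExpr, which left 16565, and scaled with TMM factors (0.916 to 1.08). Groups were compared with edgeR 4.0.16 (robust quasi-likelihood F-test with no covariate), with Benjamini-Hochberg adjustment over all tested genes. A standard error is the log2 fold change divided by the square root of F. The labels call the replicates biological, but no animal is named, so the p-values measure the spread between these libraries. Libraries of a group differed by more than sampling noise (chi-square per gene 24.9 to 79.3, with the highest values in pairs that hold melatonin replicate 4).

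The members, the gene lists and the tests were chosen with earlier results of these data known. Named genes are the members, all receptor genes, the 3 genes with the smallest p in every other list, 4 adipocyte genes, Pparg, Cebpa and the 3 genes nearest to each member in profile (log2 CPM with a prior count of 2), and cell type markers at 0 in all libraries; any other is said to be named after its values were seen, and some genes that the rule names are not reported here. Alternatives were other scalings and filters, no robust estimation, limma-voom (limma 3.58.1), DESeq2 1.42.0, a replicate block, and leaving out each library in turn. The fit was tested on simulated counts.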

Additional observations from a re-analysis of the deposited data

Results flagged for a closer look

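Among the groups of 4 libraries examined, which were the CPM of members, receptors and adipocyte genes and the ratios of members, 5 of 68 had a library far from the other 3, and chance flags about 1 in 20. Vehicle replicate 3 was far from the other vehicle libraries for Cap1 (310 CPM, the highest) and for Lepr (0.0877 CPM, the lowest, from 4 counts). For Stra6, vehicle replicate 2 was apart at 0 CPM, beside 6 counts in each of the other 3. Melatonin replicate 4 was the lowest for Plin1 at 144 CPM. In the log2 ratio of Rarres2 to Rbp4, melatonin replicate 3 stood lowest at 0.41.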

How the results depend on the processing

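Adipoq, Cfd, Rbp4, Rarres2 and Retn kept their direction and their side of the threshold in all 17 alternatives, with log2 fold changes of 2.07 to 2.3, 1.23 to 1.46, 0.54 to 0.80, -1.98 to -1.74 and 0.01 to 0.27. Adjusted p was at most 0.012 for the 4 that passed and at least 0.27 for Retn. With library totals alone the number of genes called higher was 5099 instead of 2992 (2237 instead of 3062 lower), so 69.5% of calls were higher instead of 49.4%, and the median over tested genes moved from 0.01 to 0.17 on the log2 scale. That scaling gave the upper end of each member's range. No pairing by replicate number was seen: same-numbered libraries had deviations that correlated at -0.046 to 0.035, and 0 of 8 libraries correlated best with their own number. The labels name no animal, so whether equal numbers share one is not known. With the replicate block 2293 genes were higher and 2649 lower, and the members stayed at 3 and 1. Among other genes, 4 genes that did not pass changed sign: with a library left out Adipor1 ran from -0.0036 to 0.13, Cap1 from -0.083 to 0.41, Tlr4 from -0.30 to 0.26 and Lyz2 from -0.25 to 0.016, and Lyz2 was at 0.0024 with library totals alone. The change in the log2 ratio of Adipoq to Plin1 was 0.40 with Cidec in the place of Plin1, where the groups overlapped. Among the named genes, Cmklr1 alone lost its call in an alternative that tested it (Stra6l and Lepr were not tested with the minimum of 1 CPM in 4 libraries), and Adipor1, Emcn, Myod1, Myog and Zfp90 gained one in some; the cause was not tested. Per-length levels shifted with the longest transcript as length, by most for Retn (1.77 and 1.90 CPM per kb). Depth limits Stra6 and Lepr, and also other genes with under 100 counts in some library, such as Vwf, Stra6l, Emcn, Rgs5, Cidec and Retn.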
